A study of Mus musculus with 10 samples.

Results

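A set of 10 genes that mark the epithelium of the airways and alveoli were followed in sorted mouse lung cells: Scgb1a1 and Cyp2f2 of club cells, Tppp3 of ciliated cells, Sftpc, Sftpb, Sftpa1, Sftpd, Slc34a2 and Lamp3 of alveolar type 2 cells, and Hopx of alveolar type 1 cells. They were chosen by name as lung epithelial genes. All 10 were in the count files, which list 24538 genes, and in the table of FPKM values (fragments scaled to transcript length and library depth), which lists 24460. Total RNA was sequenced from live CD31+/CD45- cells, where CD31 is an adhesion molecule of endothelium and CD45 a surface protein of leukocytes. The metastasis group held 5 libraries from wild type C57BL6/J females that received cells of E0771-LG, a mouse mammary tumour line, through the tail vein at 6 to 8 weeks of age. Their lung metastases under 1 mm across were dissected and pooled from 2 to 4 mice. The normal lung group held 5 libraries from wild type C57BL6/J lungs taken through the same steps. The age tag of every sample was 8 to 10 weeks. Both groups shared perfusion, enzyme digestion in the presence of alpha-amanitin and actinomycin D, and the sort. How many mice a normal lung library came from is not stated, and p-values therefore measure the spread between these libraries, which may be partly technical.

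The surface of the lung is lined by several epithelial cell types. Club cells secrete the protein Scgb1a1 into the airway fluid and metabolise foreign compounds, and ciliated cells move mucus. Alveolar type 2 cells make surfactant, a film of lipids and surfactant proteins that keeps the alveoli open, and flat alveolar type 1 cells form the gas exchange surface next to the capillaries. The gate selects for CD31, a marker of endothelium and not of these epithelial cells.

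Gene counts came to 21.7 to 54.3 M in metastasis libraries and to 41.0 to 79.7 M in normal lung libraries. Levels are given as CPM, gene counts scaled to library size, on libraries scaled by TMM (trimmed mean of M values). A gene is said to have risen or fallen in metastases only where its adjusted p from edgeR's quasi-likelihood test, with Benjamini-Hochberg adjustment over 11823 tested genes, was under 0.05. Each log2 fold change sets metastases over normal lung, and its standard error (SE) is approximate. The CD31 gene Pecam1 was at 146 to 1402 CPM in metastases and at 1840 to 3922 CPM in normal lung. The CD45 gene Ptprc was at 84.0 to 154 CPM in metastases and at 8.05 to 26.1 CPM in normal lung. The median level of 19 genes shared by all endothelial cells, as a percentage of their normal lung mean, was 6.26 to 39.1% in metastasis libraries and 75.5 to 156% in normal lung libraries. In bulk samples such as these, fewer cells of a type and less RNA per cell cannot be told apart.

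Several general and lineage markers of lung epithelium were low in both groups. Among general markers, Krt8 was not low in metastases, and St14 and Krt19 were low in some metastasis libraries but not in all. Grhl2, a factor that maintains epithelia, was not low in normal lung, with 3.15 to 39.3 CPM against 0.0992 to 3.17 CPM in metastases. Esrp2, another general marker, reached 11.7 CPM in normal lung (median 0.243 CPM) and 2.33 CPM in metastases. Krt8, a keratin of simple epithelia and of many carcinoma cells, was at 4.61 to 42.2 CPM in metastases and 0.162 to 0.339 CPM in normal lung. St14, a membrane protease of epithelia, was at 0.102 to 24.9 CPM (median 2.93 CPM) in metastases and 0.0471 to 0.179 CPM in normal lung. Krt19, another keratin, was at 0.0338 to 23.0 CPM (median 0.248 CPM) in metastases and 0.0471 to 0.324 CPM in normal lung. Epcam, an adhesion molecule of most epithelia, was at 0.0338, 0, 0, 4.50 and 0.0353 CPM in metastasis replicates 1 to 5, against 0, 0, 0.0235, 0 and 9.78 CPM in normal lung replicates 1 to 5. Both higher values came from single libraries, metastasis replicate 4 and normal lung replicate 5. Nkx2-1, the transcription factor of lung epithelial identity, was at 0 to 1.73 CPM in metastases and 0 to 3.40 CPM in normal lung, with its highest level again in normal lung replicate 5. Foxj1, which drives the formation of motile cilia, reached at most 0.174 CPM in metastases and 0.0235 CPM in normal lung. Ccdc39, needed to assemble cilia, was higher, at 0.305 to 8.74 CPM in metastases and 1.34 to 19.6 CPM in normal lung. Ager, an alveolar type 1 receptor, reached 0.523 CPM in metastases and 1.70 CPM in normal lung, and the water channel gene Aqp5 had no count in any library.

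Of the 10 epithelial genes, 9 passed the filter on low counts and Sftpd did not. Slc34a2 and Lamp3 rose in metastases, and Scgb1a1, Cyp2f2 and Hopx fell. The other 4 tested genes did not pass. Over all 11823 tested genes 20.2% were called, 12% higher and 8.22% lower in metastases. The median log2 fold change of the 9 tested genes was 0.06, and that of all tested genes was also 0.06. In 9 of the 10 genes the groups overlapped, and the exception was Hopx. Over all tested genes 14.7% had groups that did not overlap.

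**Figure D1:**
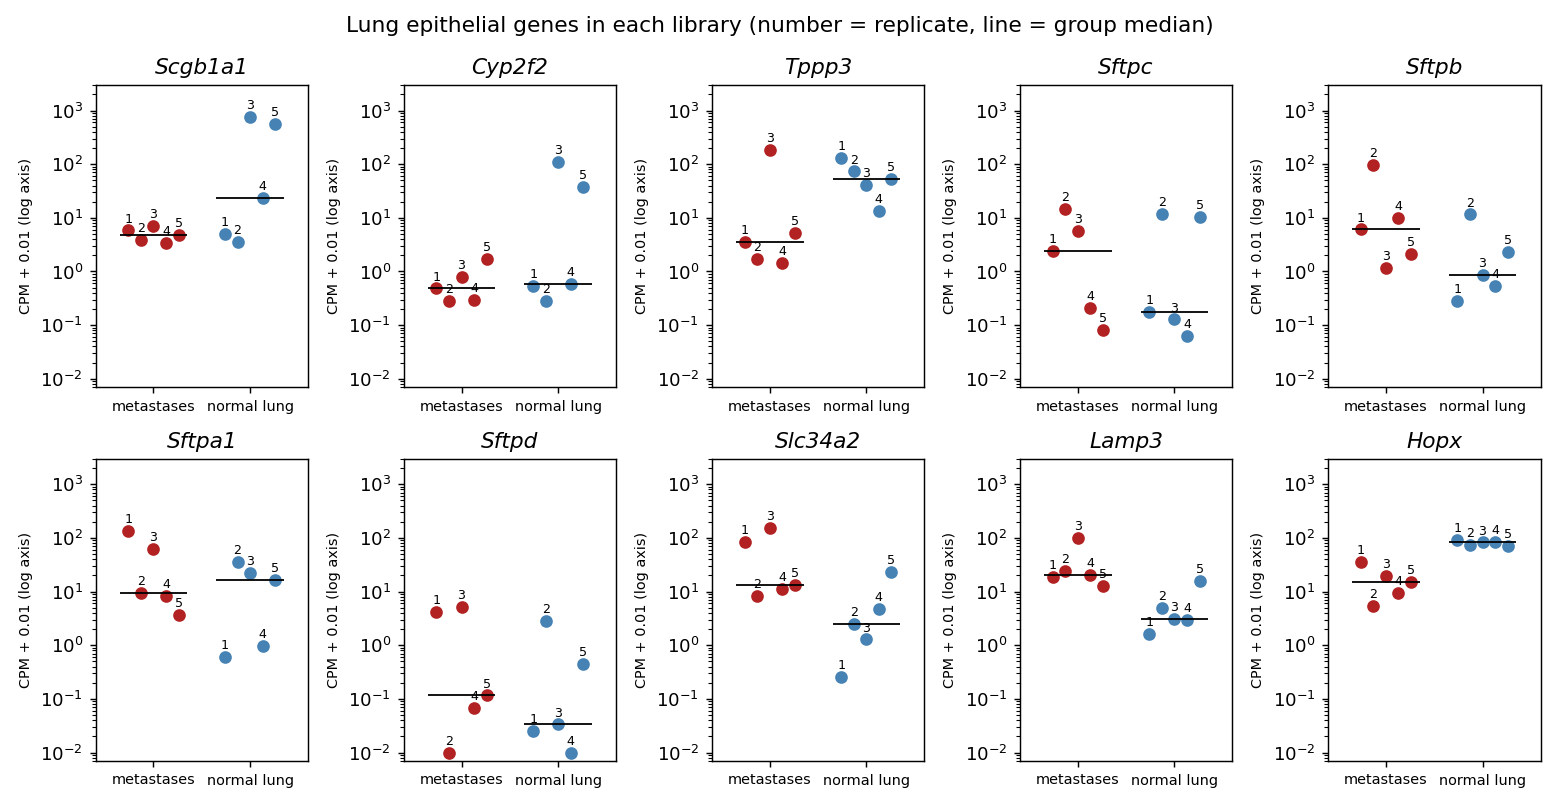
CPM + 0.01 on a log axis for each of the 10 lung epithelial genes, with metastases left of normal lung in each panel, 1 point per library numbered by replicate, and a line at the group median. Hopx is the gene whose groups do not overlap, with 5.34 to 35.7 CPM in metastases and 71.5 to 90.6 CPM in normal lung, while the secretory and surfactant genes are high in a few libraries that differ from gene to gene.

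Scgb1a1 encodes the main secreted protein of club cells and lies on chromosome 19 from 9083636 to 9087958. It had 5.82, 3.89, 7.10, 3.40 and 4.87 CPM in metastasis replicates 1 to 5, against 4.99, 3.57, 752, 23.9 and 558 CPM in normal lung replicates 1 to 5. The high values belong to normal lung replicates 3 and 5, replicate 4 stood between, and normal lung replicates 1 and 2 lay within the range of the metastases. Its log2 fold change was -5.74 ± 1.21 SE (edgeR adjusted p = 0.00245). Among replicates 1 and 2 of both groups alone it was 0.20 ± 2.22 (adjusted p = 0.971), and among replicates 3 to 5 alone it was -6.46 ± 1.03 (adjusted p = 0.00188). Without normal lung replicates 3 and 5 it was -1.14 (adjusted p = 0.641), so the call rests on these libraries. On log2(FPKM + 1) limma gave -3.38 (adjusted p = 0.186). Metastasis libraries were at 0.451 to 0.943% of the level of the highest library, and normal lung replicates 1 and 2 at 0.663 and 0.475%.

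Cyp2f2 encodes a cytochrome P450 that club cells use to oxidise foreign compounds (chromosome 7, 27119909 to 27133660). It had 0.474, 0.275, 0.794, 0.290 and 1.69 CPM in metastasis replicates 1 to 5, against 0.521, 0.275, 109, 0.574 and 37.5 CPM in normal lung replicates 1 to 5. Again normal lung replicates 3 and 5 stood far above every other library, and the groups overlapped elsewhere. Its log2 fold change was -5.39 ± 1.50 SE (edgeR adjusted p = 0.0123), and without normal lung replicate 3 it was -3.81 (adjusted p = 0.108). Among replicates 1 and 2 it was -0.07 ± 2.42 (adjusted p = 0.991) and among replicates 3 to 5 it was -5.74 ± 1.58 (adjusted p = 0.0284). Without both high libraries it was 0.60 (adjusted p = 0.878), and limma on log2(FPKM + 1) gave -2.09 (adjusted p = 0.220). In the annotation used here an antisense gene, Gm15883, overlaps exons of Cyp2f2, and the use of strand in counting is not given, so reads of the pair cannot be told apart.

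The ratio of Scgb1a1 to Cyp2f2 varied less than either gene did in normal lung. On the FPKM scale, which allows levels of different genes to be compared, Scgb1a1 stood 17.0 to 67.5 times over Cyp2f2 in 8 of 10 libraries, and 74.4 and 156 times over it in normal lung replicates 5 and 4. The span of that ratio over 10 libraries was 9.18-fold, or 14.5-fold by raw counts, while Scgb1a1 itself spanned 15.5 to 3956 FPKM in normal lung. Across the 10 libraries their deviations from the group mean of log2(CPM + 1) had a Pearson r of 0.95, given as a description of libraries that share a group, with the value resting largely on normal lung replicates 3 and 5. Scgb1a1 had the highest median FPKM of the 10 genes in both groups, with 19.7 FPKM in metastases and 129 FPKM in normal lung.

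Of 14 further club cell genes 5 were tested, and 2 of them fell. Cyp4b1, another cytochrome P450 that lung endothelium also expresses, had 154 ± 112 CPM in metastases and 1105 ± 246 CPM in normal lung (SD, n = 5 each; log2 fold change -2.84 ± 0.44 SE, edgeR adjusted p = 7.5e-05). Its groups did not overlap and its level was even among normal lung libraries, from 894 to 1512 CPM, unlike that of Scgb1a1. Selenbp1, a selenium-binding protein, had 0 to 0.141 CPM in metastases and 0.432 to 7.46 CPM in normal lung (-5.41 ± 1.65, adjusted p = 0.0215). The secretoglobin gene Scgb3a2, whose product club cells also secrete, was at 0 in every metastasis library. In normal lung it was counted only in replicates 3 (5 counts, 0.118 CPM) and 5 (6 counts, 0.162 CPM). Scgb3a1, another secretoglobin gene below the filter, had 4.62 and 6.18 CPM in normal lung replicates 4 and 5. It reached 0.0120 CPM in the other normal lung libraries and 0.794 CPM in metastases. Aldh1a1, an aldehyde dehydrogenase, was at 0.65 ± 1.23 (adjusted p = 0.764).

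Tppp3 encodes a tubulin-binding protein that is abundant in ciliated cells and also present in some mesenchymal cells (chromosome 8, 105467493 to 105471526). It had 3.55, 1.73, 183, 1.45 and 5.18 CPM in metastasis replicates 1 to 5, against 129, 73.4, 41.3, 13.7 and 52.4 CPM in normal lung replicates 1 to 5. Metastasis replicate 3 was the highest of all 10 libraries, and the other 4 metastasis libraries lay below every normal lung library. The log2 fold change was -0.67 ± 1.07 SE (edgeR adjusted p = 0.719), and without metastasis replicate 3 it was -4.37 (adjusted p = 0.000948). Among replicates 1 and 2 it was -5.24 ± 1.32 (adjusted p = 0.0128) and among replicates 3 to 5 it was 0.80 ± 1.29 (adjusted p = 0.729).

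Other ciliated cell genes did not share that level. Of 16 further genes of ciliated cells, 2 passed the filter, neither was called, and 5 had no count in any library. Their summed level was 0.508, 5.48, 30.6, 13.8 and 2.997 CPM in metastasis replicates 1 to 5, against 31.0, 3.04, 17.3, 38.7 and 35.4 CPM in normal lung replicates 1 to 5. Tppp3 alone exceeded this sum in 4 of 5 normal lung libraries. Ccdc39, needed to assemble cilia, was at -1.85 ± 1.19 SE (edgeR adjusted p = 0.304), and Dnah9, a dynein of motile cilia, at 0.27 ± 1.55 (adjusted p = 0.928).

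The surfactant proteins were not uniform within either group. Sftpc, a small hydrophobic surfactant protein made by alveolar type 2 cells (chromosome 14, 70520949 to 70524081), had 2.44, 14.9, 5.61, 0.203 and 0.0705 CPM in metastasis replicates 1 to 5, against 0.168, 11.7, 0.118, 0.0522 and 10.2 CPM in normal lung replicates 1 to 5. High libraries occurred in both groups, metastasis replicates 1 to 3 and normal lung replicates 2 and 5, and the lowest library held 2 counts. Its log2 fold change was 0.06 ± 1.53 SE (edgeR adjusted p = 0.984), an estimate whose sign changed with the library left out. Its value among replicates 1 and 2 was 0.55 ± 2.16 (adjusted p = 0.925). Among replicates 3 to 5 it did not pass the filter.

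Sftpb encodes the protein that spreads surfactant lipids and is needed for breathing after birth (chromosome 6, 72304610 to 72314371). It had 6.06, 97.9, 1.14, 9.81 and 2.15 CPM in metastasis replicates 1 to 5, against 0.276, 11.6, 0.847, 0.522 and 2.32 CPM in normal lung replicates 1 to 5. Metastasis replicate 2 was far above the rest and the groups overlapped. The log2 fold change was 2.91 ± 1.30 SE (edgeR adjusted p = 0.123). It was 0.62 (adjusted p = 0.802) without metastasis replicate 2 and 4.52 (adjusted p = 0.0339) without normal lung replicate 2. DESeq2 called it at 2.87 (adjusted p = 0.0409). The count and FPKM values of Sftpb did not keep 1 ratio: CPM per FPKM was 0.586 in metastasis replicate 3 and 5.85 in metastasis replicate 4, a span of 9.99-fold, where the median span of all tested genes was 2.09-fold. On the FPKM scale Sftpb had 7.79, 72.7, 1.95, 1.68 and 0.929 in metastasis replicates 1 to 5, so metastasis replicate 4 lay above replicates 1 and 3 by counts and below both by FPKM.

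Sftpa1 and Sftpd encode collectins, surfactant proteins that bind sugars on microbes, and lie near each other on chromosome 14, at 41131782 to 41136452 and at 41172214 to 41185149. Sftpa1 had 135, 9.33, 62.1, 8.36 and 3.63 CPM in metastasis replicates 1 to 5, against 0.597, 36.1, 22.6, 0.965 and 16.2 CPM in normal lung replicates 1 to 5. Metastasis replicates 1 and 3 were highest, and normal lung replicates 1 and 4 lowest. The log2 fold change was 1.51 ± 1.06 SE (edgeR adjusted p = 0.353). It was 1.98 ± 1.40 (adjusted p = 0.455) among replicates 1 and 2, 0.88 ± 1.29 (adjusted p = 0.702) among replicates 3 to 5, and -1.17 (adjusted p = 0.549) without metastasis replicates 1 and 3.

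Sftpd had 4.16, 0, 5.11, 0.0581 and 0.106 CPM in metastasis replicates 1 to 5, against 0.0153, 2.86, 0.0235, 0 and 0.432 CPM in normal lung replicates 1 to 5. It had 3 counts or fewer in 6 of 10 libraries. Counts of 0 allow up to 0.0459 CPM in metastasis replicate 2 and up to 0.0782 CPM in normal lung replicate 4, for counting error only. The mean of log2(CPM + 1) was 0.54 higher in metastases (two-sided exact permutation test over 252 splits, p = 0.357, where the smallest possible p is 0.00794). Metastasis replicates 1 and 3 held most of Sftpd in that group, as they did for Sftpa1. Within-group deviations of the 2 genes had a Pearson r of 0.80 over 10 libraries, as a description.

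Ratios of alveolar type 2 genes to Sftpc spanned a wider range than that of the club cell pair. On the FPKM scale Sftpb was 0.116 to 3.72 times Sftpc, a span of 32.2-fold over 10 libraries. Sftpa1 was 0.107 to 13.6 times Sftpc, a span of 127-fold. The highest ratios came from libraries with few Sftpc counts, 7 in metastasis replicate 4 for Sftpb and 5 in normal lung replicate 3 for Sftpa1, and the highest ratio of Slc34a2 to Sftpc from metastasis replicate 5, with 2, so the spans carry large counting error. In metastasis replicate 2 Sftpb had 72.7 FPKM, Sftpc 26.0 FPKM, Sftpa1 2.77 FPKM and Sftpd was listed at 0. In metastasis replicate 1 the order was another, with Sftpa1 at 36.8 FPKM, Sftpb at 7.79, Sftpd at 7.39 and Sftpc at 5.42.

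**Figure D2:**
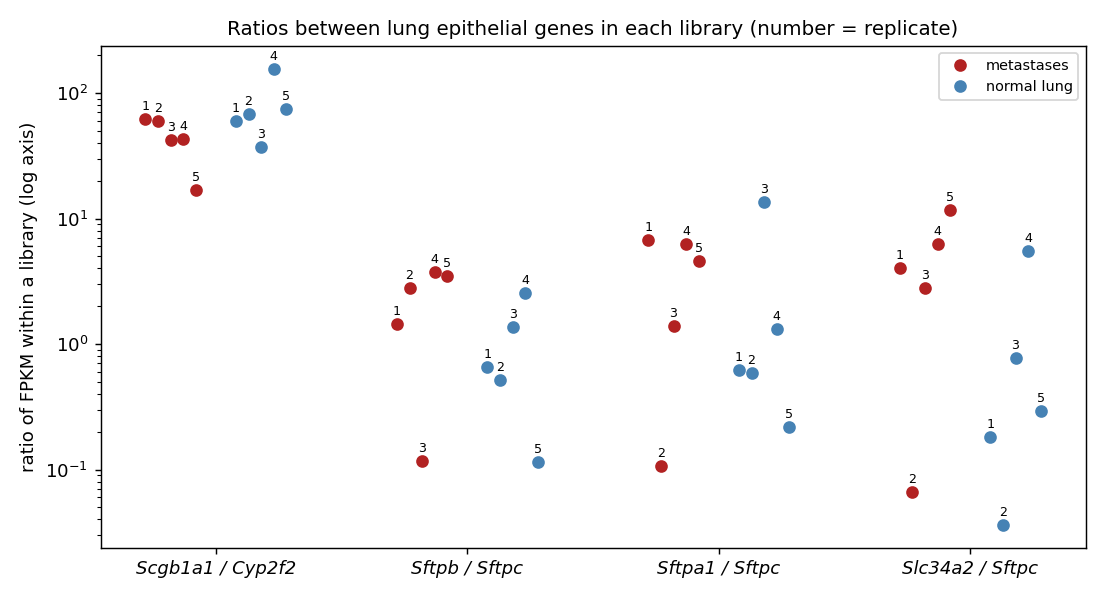
Ratio of the FPKM values of 2 lung epithelial genes within each library, on a log axis, with metastases left of normal lung in each pair and points numbered by replicate. The club cell pair spans 9.18-fold over the 10 libraries, while the ratios of Sftpb, Sftpa1 and Slc34a2 to Sftpc span 32.2-fold, 127-fold and 323-fold.

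Slc34a2 and Lamp3 rose in metastases. Slc34a2 encodes a sodium-phosphate cotransporter that recovers phosphate from surfactant and is also expressed in mammary epithelium (chromosome 5, 53038081 to 53071664). It had 85.7, 8.36, 153, 11.2 and 13.2 CPM in metastasis replicates 1 to 5, against 0.245, 2.45, 1.27, 4.80 and 23.0 CPM in normal lung replicates 1 to 5. All metastasis libraries exceeded normal lung replicates 1 to 4, and normal lung replicate 5 exceeded 3 of them. The log2 fold change was 3.09 ± 1.09 SE (edgeR adjusted p = 0.0464). It passed in 4 of the 10 fits that left out 1 library, with adjusted p from 0.00875 without normal lung replicate 5 to 0.187 without metastasis replicate 3. The other losses were without metastasis replicate 1 (adjusted p = 0.0828) or any 1 of normal lung replicates 1 to 4 (0.0841 to 0.0981). Without metastasis replicates 1 and 3 together it was 0.69 (adjusted p = 0.750). Among replicates 1 and 2 it was 5.13 ± 1.84 (adjusted p = 0.0962), and among replicates 3 to 5 it was 2.59 ± 1.26 (adjusted p = 0.189).

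Lamp3 encodes a protein of lysosome-related organelles, which in the lung marks the lamellar bodies that store surfactant (chromosome 16, 19653378 to 19706375). It is also a marker of mature dendritic cells. Lamp3 had 18.4, 24.5, 101, 20.7 and 12.7 CPM in metastasis replicates 1 to 5, against 1.61, 4.92, 3.06, 2.999 and 15.6 CPM in normal lung replicates 1 to 5. Normal lung replicate 5 was the library that overlapped the metastases, as for Slc34a2. The log2 fold change of Lamp3 was 2.65 ± 0.95 SE, and the adjusted p of 0.04998 from edgeR was at the edge of the threshold. The call of Lamp3 held in 3 of 10 fits without 1 library, and its adjusted p was 0.243 without metastasis replicate 3, and the other losses, without metastasis replicates 2 or 4 or normal lung replicates 1 to 4, gave 0.0549 to 0.106. Among replicates 1 and 2 it was 2.73 ± 1.96 (adjusted p = 0.463) and among replicates 3 to 5 it was 2.61 ± 1.12 (adjusted p = 0.136). CPM per FPKM of Lamp3 ran from 4.82 to 19.5, and on log2(FPKM + 1) limma gave 1.33 (adjusted p = 0.210).

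Dendritic cell genes beside Lamp3 did not move in 1 direction. Of 12 genes on that list 5 were tested, 1 rose and 2 fell, and the summed level was 122 to 360 CPM in metastases and 243 to 779 CPM in normal lung. Per library the sum was 319, 198, 360, 124 and 122 CPM in metastasis replicates 1 to 5, against 243, 542, 458, 542 and 779 CPM in normal lung replicates 1 to 5. It was highest in metastasis replicate 3 and normal lung replicate 5, which were also the libraries highest in Lamp3 within their groups. Clec9a, a receptor of cross-presenting dendritic cells, was at 285 CPM in metastasis replicate 3 and 667 CPM in normal lung replicate 5, the highest of each group, and fell over all libraries (-1.68 ± 0.59 SE, edgeR adjusted p = 0.0470). Clec9a alone made up most of the dendritic sum in both of these libraries. H2-Ab1, an MHC class II gene, was at 32.1 CPM in metastasis replicate 3, the highest metastasis library. In normal lung replicate 5 it was at 51.5 CPM, below replicates 2 (155 CPM) and 4 (76.0 CPM). Zbtb46 fell (-3.32 ± 1.13 SE, edgeR adjusted p = 0.0395). It was highest in metastasis replicate 2 (9.24 CPM) and normal lung replicate 3 (41.3 CPM), with 1.34 CPM in metastasis replicate 3 and 11.9 CPM in normal lung replicate 5. Neither Clec9a nor Zbtb46 was called lower once libraries were scaled to the 19 endothelial genes. Clec9a was then at 0.43 (edgeR adjusted p = 0.565) and Zbtb46 at -1.04 (0.467), where the median of all tested genes was 2.78. Of the genes that mark mature dendritic cells, the homing receptor gene Ccr7 was at 0.0992 CPM in metastasis replicate 3 and at 0 in normal lung replicate 5, and the activation marker Cd83 at 0.744 CPM and 35.7 CPM in these libraries. Fscn1, an actin-bundling protein also found in tumour cells, rose (4.29 ± 0.88 SE, edgeR adjusted p = 0.00118). The part of dendritic cells in the Lamp3 values was not tested.

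Promoter windows of 250 bases before to 50 bases after the start site were found for 6 of the 10 genes in RefSeq (build GRCm38.p6), in 7 windows. They are shown for the 4 alveolar genes Sftpb, Slc34a2, Lamp3 and Hopx, which mark cells of the alveolar surface and gave different results in the comparison: Slc34a2 and Lamp3 rose, Hopx fell and Sftpb was not called. Capitals mark exact matches, on either strand, to CTCAAG, the core of NKX2-1 sites, to TGTTTAC and TGTTTGC, which forkhead factors such as the FOXA proteins bind, to TTGCAA for C/EBP factors and to AGATAA for GATA factors. None of these motifs overlapped in the windows shown.
Sftpb, chr6:72304360-72304659, plus strand: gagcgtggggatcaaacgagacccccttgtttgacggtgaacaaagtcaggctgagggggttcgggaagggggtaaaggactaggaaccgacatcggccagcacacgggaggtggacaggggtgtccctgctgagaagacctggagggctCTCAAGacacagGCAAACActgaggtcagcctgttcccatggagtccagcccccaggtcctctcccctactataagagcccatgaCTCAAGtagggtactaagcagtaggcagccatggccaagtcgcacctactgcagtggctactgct
Slc34a2, chr5:53049103-53049402, plus strand: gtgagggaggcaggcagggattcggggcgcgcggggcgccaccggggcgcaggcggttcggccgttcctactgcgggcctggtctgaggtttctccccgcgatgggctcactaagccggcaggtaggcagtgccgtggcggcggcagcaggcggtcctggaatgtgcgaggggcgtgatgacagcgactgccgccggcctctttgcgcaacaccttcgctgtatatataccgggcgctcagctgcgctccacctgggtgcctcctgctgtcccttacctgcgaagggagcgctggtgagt
Lamp3, chr16:19706316-19706615, minus strand: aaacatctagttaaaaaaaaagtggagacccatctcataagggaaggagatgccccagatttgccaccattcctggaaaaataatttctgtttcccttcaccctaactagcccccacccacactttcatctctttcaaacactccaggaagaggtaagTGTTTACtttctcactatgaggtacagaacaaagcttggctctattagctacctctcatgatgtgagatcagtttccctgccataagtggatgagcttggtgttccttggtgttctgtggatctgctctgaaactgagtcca
Hopx, chr5:77115074-77115373, minus strand: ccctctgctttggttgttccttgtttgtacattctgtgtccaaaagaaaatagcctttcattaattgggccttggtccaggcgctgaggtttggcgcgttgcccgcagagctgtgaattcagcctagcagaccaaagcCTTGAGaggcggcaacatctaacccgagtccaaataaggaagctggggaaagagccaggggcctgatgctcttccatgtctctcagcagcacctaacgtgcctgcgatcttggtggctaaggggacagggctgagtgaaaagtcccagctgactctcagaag

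The Sftpb window held CTCAAG at positions -100 and -15 from the start site and TGTTTGC on the opposite strand at -88. The Lamp3 window held TGTTTAC at -92, the Hopx window shown CTCAAG on the opposite strand at -112, and the Slc34a2 window no match. Another Hopx window, not shown, held CTCAAG on the opposite strand at 37. CTCAAG was in 4 of the 7 windows, among them both windows of Hopx, and in 15.9% of all 32851 windows of the table. TGTTTAC and TGTTTGC were in 3.65% and 5.07% of them, TTGCAA in 6.23% and AGATAA in 11.2%. A match describes letters and is not evidence of binding. The Slc34a2 window was GC-rich, with 68.7% G or C, and the Lamp3 window had 43.7%.

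Levels of factors that bind such motifs differed widely. Nkx2-1 was at -1.53 ± 1.77 SE (edgeR adjusted p = 0.607), from 0 to 1.73 CPM in metastases and from 0 to 3.40 CPM in normal lung. Foxa2 had no count in any library. Foxa1 had 0, 0.0459, 5.86, 0.377 and 4.09 CPM in metastasis replicates 1 to 5 and no count in any normal lung library. Foxp1, a forkhead factor of many lung cell types, was at 129 to 688 CPM in metastases and 501 to 693 CPM in normal lung (-0.71 ± 0.43, adjusted p = 0.281). Gata6, which endothelium also expresses, was at 0.116 to 16.5 CPM in metastases and 7.30 to 20.6 CPM in normal lung (-1.73 ± 1.31, adjusted p = 0.396). Cebpa, a C/EBP factor, reached 0.0290 CPM in metastases and 0.143 CPM in normal lung. Of 12 regulators of lung epithelium on the list 5 were tested and 1 rose, Sox9, which marks distal lung progenitors and many tumours (5.74 ± 1.11, adjusted p = 0.000718).

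Of 21 further alveolar type 2 genes 10 were tested, 2 rose and 1 fell, with a median log2 fold change of 1.64. Abca3, the lipid pump of lamellar bodies, had 3.69, 14.7, 2.33, 2.96 and 3.03 CPM in metastasis replicates 1 to 5, against 127, 104, 24.0, 62.7 and 22.4 CPM in normal lung replicates 1 to 5. Its groups did not overlap, and at -3.67 ± 0.83 SE (edgeR adjusted p = 0.00273) it went against Slc34a2 and Lamp3. Its highest library, normal lung replicate 1, had the lowest summed level of the 6 alveolar type 2 genes among the 10, 2.91 CPM. That library also had the highest pan-endothelial level, 156%. The part of other cell types in the Abca3 values was not tested. Scd1, a fatty acid desaturase of many cell types, rose (3.62 ± 0.71, adjusted p = 0.000742), with 44.5 to 239.6 CPM in metastases and 2.21 to 21.9 CPM in normal lung. Hc, the complement component C5, also rose (4.85 ± 1.12, adjusted p = 0.00313), with 281 CPM in metastasis replicate 3 and at most 5.60 CPM in normal lung. Cxcl15, a chemokine of lung epithelium, was at 1.64 ± 1.37 (adjusted p = 0.454), and Napsa, the protease that processes surfactant protein B, reached 1.05 CPM in metastases and 0.367 CPM in normal lung.

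Hopx encodes a small homeodomain protein without DNA binding of its own, made in alveolar type 1 cells and in several other cell types (chromosome 5, 77086988 to 77115121). It had 35.7, 5.34, 19.7, 9.58 and 14.9 CPM in metastasis replicates 1 to 5, against 90.6, 74.9, 82.6, 84.7 and 71.5 CPM in normal lung replicates 1 to 5. The groups did not overlap, and normal lung libraries were close together. Hopx averaged 17.1 ± 11.8 CPM in metastases and 80.8 ± 7.67 CPM in normal lung (SD, n = 5 each), a log2 fold change of -2.24 ± 0.65 SE (edgeR adjusted p = 0.0158) that became 0.30 once libraries were scaled to the pan-endothelial genes. It passed in all 10 fits that left out 1 library (-2.73 to -2.01). Among replicates 1 and 2 it was -1.99 ± 1.17 (adjusted p = 0.342), and among replicates 3 to 5 it was -2.45 ± 0.71 (adjusted p = 0.0349). An antisense gene, Hopxos, overlaps its exons in the annotation used here.

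The evenness of Hopx in normal lung set it apart from the other 9 genes. Its coefficient of variation (CV, SD over mean) was 9.49% there, at the 0.237th percentile of all tested genes, whose median CV was 70.2%. In the same libraries Scgb1a1, Cyp2f2, Sftpc, Sftpb and Slc34a2 had CVs of 134 to 160%. Within metastases Tppp3 had the highest CV of the tested epithelial genes, 207%, and Scgb1a1 the lowest, 29.7%. Of the 9 tested genes, 5 differed at least 10-fold between the highest and lowest metastasis library, and 6 did so between normal lung libraries.

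Further alveolar type 1 genes behaved differently from one another. Of 15, 8 were tested and 3 fell, with none risen. Akap5 was not called (2.33 ± 0.92 SE, edgeR adjusted p = 0.0770), but its groups did not overlap. It had 38.8 to 56.6 CPM in metastases and 0.610 to 27.9 CPM in normal lung. Below the filter, the groups of Pdpn and Spock2 did not overlap. Pdpn reached 10.8 CPM in metastases and 0.0270 CPM in normal lung, and Spock2 0.135 and 4.16 CPM. DESeq2 called Pdpn and Rtkn2 higher (adjusted p = 4.2e-06 and 0.000316) and Spock2 lower (0.00133). Clic5, a chloride channel protein that lung capillaries also express, had 404 ± 392 CPM in metastases and 1980 ± 225 CPM in normal lung (SD, n = 5 each; -2.29 ± 0.52 SE, edgeR adjusted p = 0.00262). Emp2, a membrane protein of alveolar and capillary cells, had 189 ± 125 CPM in metastases and 1501 ± 735 CPM in normal lung (-2.99 ± 0.46, adjusted p = 7.02e-05). Vegfa, the endothelial growth factor that alveolar type 1 cells supply, was at -1.42 ± 0.43 (adjusted p = 0.0210), and at 1.08 after pan-endothelial scaling. Clic5 and Emp2 were at 1745 to 2288 CPM and 1105 to 2807 CPM in normal lung libraries, where Ager reached only 1.70 CPM and Aqp5 had no count.

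Levels relative to the endothelial transcripts of the same library gave another order. Libraries were scaled to the geometric mean of the 19 pan-endothelial genes, which moved the median log2 fold change of all tested genes to 2.78. On this scale 59.8% of tested genes were higher in metastases and 0.161% lower, so values are read against that median. Hopx was then at 0.30 ± 0.85 SE (edgeR adjusted p = 0.766), Clic5 at -0.12 (0.846), Emp2 at -0.47 (0.414), Cyp4b1 at -0.50 (0.385) and Abca3 at -1.01 (0.386), all below the median of all genes. Hopx, as a percentage of its normal lung mean, was at 44.2, 6.61, 24.4, 11.9 and 18.5% in metastasis replicates 1 to 5, against pan-endothelial levels of 39.1, 22.4, 21.1, 9.02 and 6.26% in the same libraries. Slc34a2 was at 5.08 ± 1.20 (adjusted p = 0.000941), Lamp3 at 4.97 ± 1.08 (0.000419), Sftpb at 5.15 ± 1.40 (0.00304) and Sftpa1 at 3.39 ± 1.14 (0.0127), all above it. Scgb1a1 stayed lower at -3.35 ± 1.14 (adjusted p = 0.0143), Cyp2f2 was at -2.59 ± 1.55 (0.145), Sftpc at 2.02 ± 1.56 (0.258) and Tppp3 at 1.86 ± 1.08 (0.135).

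**Figure D3:**
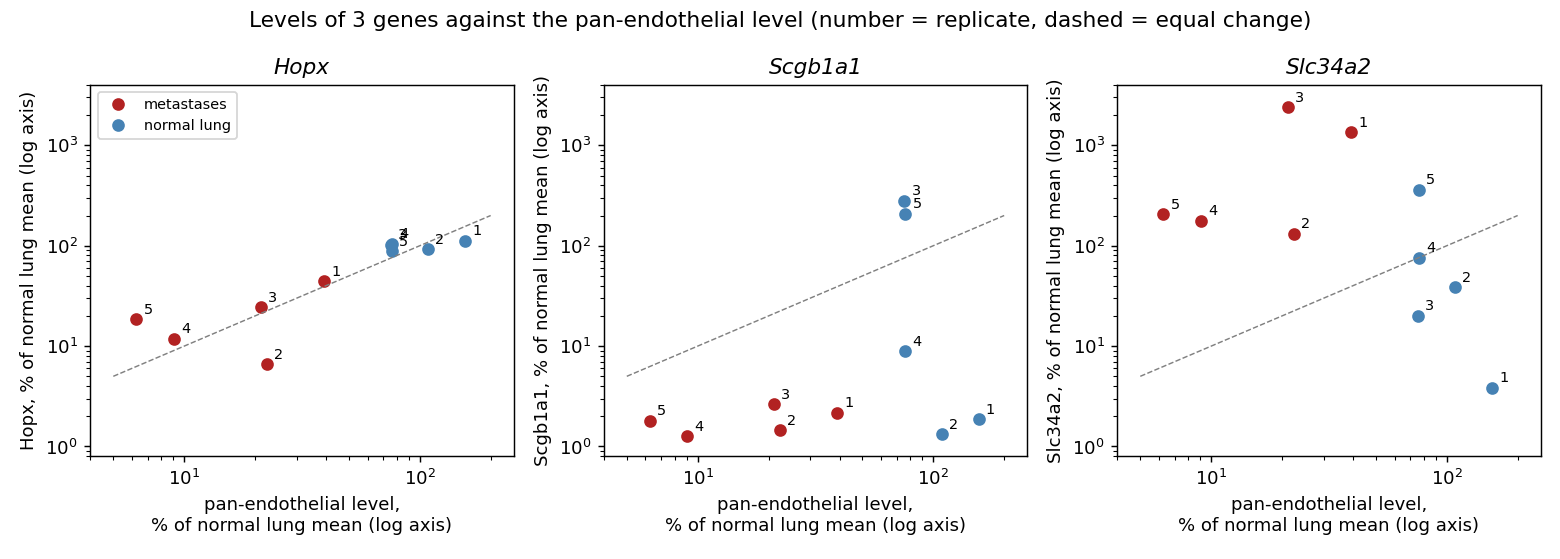
Level of Hopx, Scgb1a1 and Slc34a2 (vertical) against the median pan-endothelial level (horizontal) in each library, both as a percentage of the normal lung mean on log axes, with points numbered by replicate and a dashed line of equal change. Metastasis libraries lie at 6.26 to 39.1% of the pan-endothelial level, Hopx lies above the line in 4 of them and below it in replicate 2, Scgb1a1 lies below it in 8 libraries, and Slc34a2 lies above it in all 5 metastasis libraries.

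**Figure D4:**
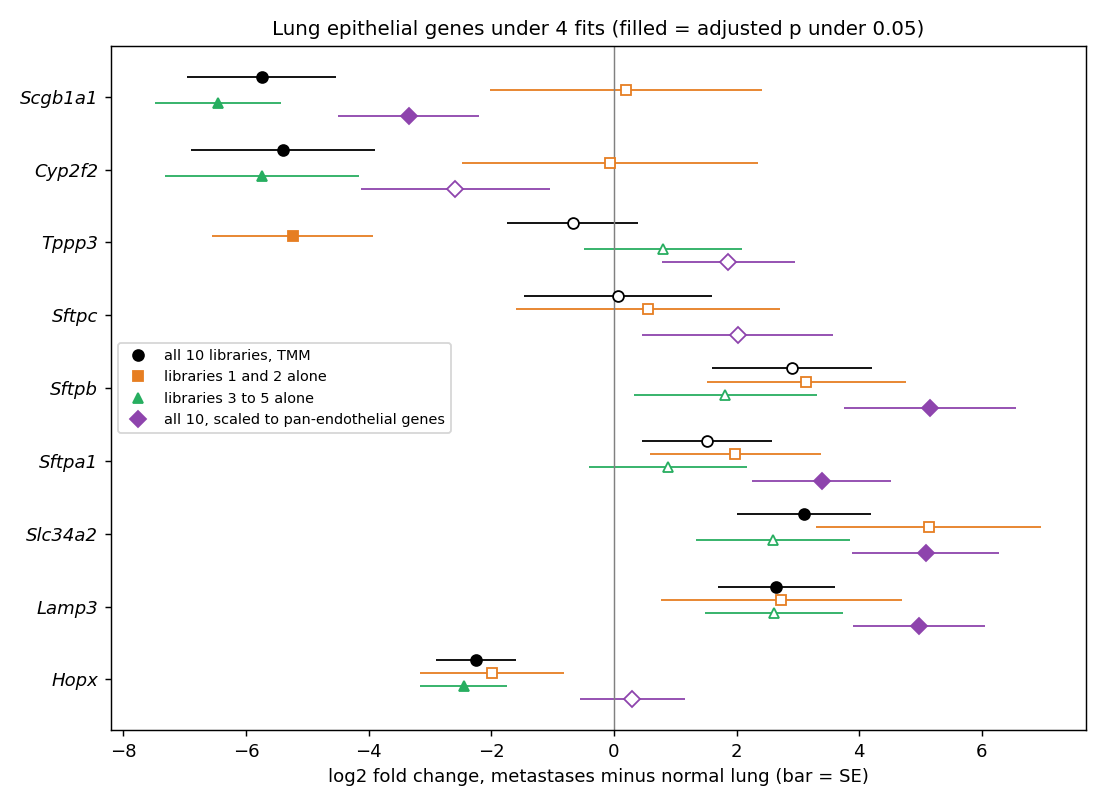
Log2 fold change of each tested epithelial gene, metastases minus normal lung, with its SE, for all 10 libraries, for replicates 1 and 2 alone, for replicates 3 to 5 alone and after scaling to the pan-endothelial genes. Filled symbols have an edgeR adjusted p under 0.05. Scgb1a1 lies at -5.74 over all libraries and at 0.20 among replicates 1 and 2, while Hopx lies between -2.45 and -1.99 in the unscaled fits and at 0.30 after pan-endothelial scaling.

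General epithelial genes gave 1 call by edgeR. Of 18 genes on that list 4 were tested and Krt8 rose. It had 23.3, 24.3, 4.61, 15.2 and 42.2 CPM in metastasis replicates 1 to 5, against 0.162 to 0.339 CPM in normal lung (6.47 ± 1.20 SE, edgeR adjusted p = 0.000497). Its highest library, metastasis replicate 5, was the lowest of the metastases in Sftpc and Sftpa1. The next highest in Krt8, metastasis replicate 2, was the highest of all libraries in Sftpc and Sftpb. Cdh1, E-cadherin, was at 0.95 ± 1.36 (adjusted p = 0.685), and Grhl2, a factor that maintains epithelia, at -3.38 ± 1.35 (0.0797). Genes of basal and neuroendocrine cells of the airway gave no tested member of 12, and 1 of 8 genes of the mesothelium was tested, Upk1b, at 3.23 ± 1.75 (0.215). Below the filter, DESeq2 called the general markers St14 (adjusted p = 7.5e-08) and Ovol1 (0.0378) higher. It did so for Resp18 (0.000151) and Chga (0.0143) of the basal and neuroendocrine list. Of the mesothelial list it called Lrrn4 (1.8e-06), Upk3b (1.5e-05), Bnc1 (7.6e-05) and Wt1 (0.0158) higher. DESeq2 called Grhl2 lower (0.00378). The summed mesothelial level was 3.92 to 33.8 CPM in metastases and 0.0956 to 12.1 CPM in normal lung.

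Metastasis libraries also held more transcripts of other cell types. Fibroblast genes included Fn1, fibronectin (4.19 ± 0.68 SE, edgeR adjusted p = 0.000109), Col3a1, a collagen (3.87 ± 0.78, 0.00102), and the receptor gene Pdgfra (6.60 ± 0.85, 6.66e-06). Of 9 tested fibroblast genes 6 rose and none fell, with a summed level of 505 to 2386 CPM in metastases and 48.4 to 93.9 CPM in normal lung. Of 11 tested macrophage genes 6 rose and 1 fell, with a summed level of 1055 to 2140.2 CPM in metastases and 479 to 859.8 CPM in normal lung. The summed level of the 6 alveolar type 2 genes Sftpc, Sftpb, Sftpa1, Sftpd, Slc34a2 and Lamp3 was 251, 155, 327, 50.4 and 31.8 CPM in metastasis replicates 1 to 5, against 2.91, 69.7, 27.9, 9.34 and 67.7 CPM in normal lung replicates 1 to 5. Within metastases the alveolar type 2 sum and the dendritic sum were both highest in replicate 3 and had the same order over the 5 libraries, and the fibroblast and macrophage sums were highest in replicate 2. The part of these cell types in the epithelial values was not tested.

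Genes that varied most like Sftpc and Scgb1a1 were sought among 11678 tested genes outside the 10 with a mean of at least 1 CPM, by Pearson r of deviations from the group mean of log2(CPM + 1) over 10 libraries. With this few libraries high values of r arise among many genes, and they are given as a description. For Sftpc they were Tmsb10 (r = 0.91), Smg6 (0.91), Cd68 (0.90), Fen1 (0.89) and Slc2a3 (0.89). Cd68, a lysosomal marker of macrophages, is on the macrophage list, and none of the 5 is on an epithelial list. For Scgb1a1 they were 8430426J06Rik (0.97), Lcorl (0.94), Eny2 (0.94), Coq4 (0.93) and Iars (0.92), also outside the epithelial lists. Cyp2f2, left out of this search as one of the 10, had an r of 0.95 with Scgb1a1, which only 8430426J06Rik exceeded.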

How the data were processed

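RNA from sorted CD31+/CD45- cells of 5 metastasis and 5 normal lung samples was amplified with the Ovation RNA-Seq V2 kit and sequenced as paired reads of 100 bases, per the labels' protocols. The deposited gene counts are raw whole numbers, 1 file per sample. The authors also deposited 1 table of FPKM values. Per the submitters' processing notes, HTSeq 0.6.1, DESeq2 1.6.3, TopHat2 2.0.13 and Cufflinks 2.2.1 were used with mouse build mm10; their roles are not stated, and the use of strand in counting is not given in the sources used here. Reads that HTSeq gave to no gene were 57.9 to 73.7% of metastasis libraries and 55.4 to 64.7% of normal lung libraries and were left out.

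CPM are counts per 1000000. Counts were filtered with filterByExpr, scaled by TMM and tested with edgeR 4.0.16 (quasi-likelihood, robust, no covariate) in R 4.3.3, with Benjamini-Hochberg adjustment over 11823 genes. SEs come from the fold change and the F of that test. Alternatives used DESeq2 1.42.0, and limma 3.58.1 on log2(FPKM + 1) and log2(FPKM + 0.1) for genes with a mean of at least 0.1 FPKM. The scripts were tested on simulated data. Replicates 1 and 2 and replicates 3 to 5 were also fitted apart, a split that the labels do not call a batch. Gene positions are from GENCODE release M21 (GRCm38).

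The genes and lists were chosen with earlier results of these data known. The naming rule took the 2 tested genes of highest mean CPM in each list and the called gene of largest change in each direction, and other listed genes named here were chosen after their values were seen. Same-number correlations of deviations between the groups ran from -0.008 to 0.177. For metastasis replicates 2 and 4 they exceeded the correlations with any other number. Such values cannot show whether replicate numbers paired the samples.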

Additional observations from a re-analysis of the deposited data

Results flagged for a closer look

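In groups of 5 libraries, a highest or lowest library was singled out where its gap to the nearest other library exceeded 0.71 of the group's range. This was met in 8 of 24 groups examined, each time by the highest library. Chance gives about 5% for normally distributed values. Untransformed CPM such as these are skewed, so the 8 groups cannot be set against that 5%.

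Tppp3 in metastases stood at 183 CPM in replicate 3, with 5.18 CPM in the next library, a gap of 0.979 of the range. Lamp3 in metastases was highest in the same library, at 101 CPM against 24.5 CPM in the next (0.866). Sftpb stood out in replicate 2 of both groups, with 97.9 CPM in metastases, where the next library had 9.81 CPM (0.91), and 11.6 CPM in normal lung, where the next had 2.32 CPM (0.819). Sftpd in normal lung was at 2.86 CPM in that same replicate 2, with 0.432 CPM in the next library (0.849). Normal lung replicate 5 stood out for Slc34a2 at 23.0 CPM, with 4.80 CPM next (0.8), and for Lamp3 at 15.6 CPM, with 4.92 CPM next (0.763). Normal lung replicate 1 stood out for the sort gene Pecam1, at 3922 CPM, with 2342 CPM next (0.759).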

How the results depend on the processing

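Of the 10 epithelial genes, 2 were called higher and 3 lower, and of all genes 1420 higher and 972 lower. Counts of called epithelial genes were 4 higher and 1 lower after pan-endothelial scaling, 1 higher with no filter, 0 higher and 1 lower with limma on FPKM at either pseudocount, at a threshold of 0.01 and among replicates 1 and 2 alone, and 0 higher among replicates 3 to 5 alone. Counts over all genes were 2380 higher and 1663 lower with DESeq2, 7075 and 19 after pan-endothelial scaling, 869 and 453 at a threshold of 0.01, and 487 and 201 among replicates 1 and 2 alone. Without 1 library, 0 to 2 epithelial genes were higher and 2 to 4 lower, and 1302 to 1440 and 792 to 1114 of all genes. In fits chosen after seeing the data, 1 was higher and 0 lower without normal lung replicates 3 and 5, and 0 were higher without metastasis replicates 1 and 3. With the replicate number as a block, 0 epithelial genes were higher, and Tppp3 (-3.49, edgeR adjusted p = 0.00449) and Hopx were lower, though a shared number is not known to pair samples.

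The sign changed in these cases, and the cause was not tested. After pan-endothelial scaling, Tppp3 was at 1.86, Hopx at 0.30, Ccdc39 at 1.33, Foxp1 at 1.67, Cdh5 at 0.20, Ptprb at 0.076, Clec9a at 0.43, H2-Ab1 at 1.01, Pecam1 at 0.36, and, among genes named outside the rule, for which the other alternatives were not run, apart from DESeq2, Vegfa at 1.08, Nkx2-1 at 1.71 and Gata6 at 0.35. Sftpc was at -0.018 with no filter and -0.28 with a term for replicates 1 and 2. Leaving out 1 library it ran from -1.11 to 0.79, negative without metastasis replicates 2 (-1.11) or 3 (-0.07) or normal lung replicates 1 (-0.29), 3 (-0.29) or 4 (-0.29). Aldh1a1 was at -0.025 and -0.15 with limma, -0.60 with the replicate block, -0.015 with that term, -1.36 among replicates 3 to 5, -1.20 without metastasis replicate 1 (at most 1.71, without normal lung replicate 5) and -0.85 without metastasis replicates 1 and 3. Dnah9 was at -0.80 with that term, -2.22 without metastasis replicate 3 (at most 2.63, without normal lung replicate 4), -0.07 without normal lung replicate 1 or 5, -0.36 without normal lung replicates 3 and 5 and -1.87 without metastasis replicates 1 and 3. Scgb1a1 was at 0.20 among replicates 1 and 2, Tppp3 at 0.80 among replicates 3 to 5, Cyp2f2 at 0.60 without normal lung replicates 3 and 5, and Sftpa1 at -1.17 without metastasis replicates 1 and 3. At a CPM of 0, a library allows up to 0.149 CPM in metastases and 0.0810 CPM in normal lung, for counting error only.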
